A study of Mus musculus with 18 samples.

Results

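Dermal cells collected at ZT22 were compared with dermal cells collected at ZT10. These sampling times lie 12 h apart and on opposite sides of the daily cycle, as do ZT2 and ZT14, and ZT6 and ZT18. Zeitgeber time (ZT) is given in hours after the lights went on, so under the 12:12 light-dark cycle ZT10 fell late in the light phase and ZT22 late in the dark phase. Of the 18 libraries of the series, 3 were taken at each of 6 times, and the 6 libraries labelled ZT10 or ZT22 were compared here, each from 1 mouse. Libraries entered by their label, and within them a barcode was kept as a cell if it had 850 to 7800 detected genes and under 13% mitochondrial unique molecular identifiers (UMIs, 1 per captured transcript). Of 8262 deposited barcodes in the 6 libraries, 5765 were kept, of 16877 kept in the series. Fibroblasts were the kept cells with at least 20 UMIs of Col1a1, Col1a2 and Col3a1 together, at least 1 UMI of Pdgfra and 0 of Ptprc, and 4140 cells passed. All 32285 genes of the matrices were considered, UMIs were summed per library, and the mouse was the replicate.

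All 6 mice were wild-type (WT) male C57BL/6J animals, young adults whose dorsal skin was in telogen, the resting phase of the hair follicle, and they differed by label only in the time of collection. ZT10 mice were taken at hours 10, 34 and 58 of the collection and ZT22 mice at hours 22, 46 and 70, so replicates of 1 time come from different days, and replicates with the same number share a day. Dorsal dermis was scraped free of fat, digested with collagenase and sorted for live cells, so only cells that survived dissociation were measured. No animal was kept in constant darkness, and an effect of the clock and an effect of light, feeding or activity cannot be told apart in this design.

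The circadian clock of a cell is a loop of transcription factors. Arntl (BMAL1) pairs with Clock or Npas2 and drives genes with E-box motifs, among them Per, Cry, Nr1d, Ciart and Dbp, whose proteins then repress the loop or pass its phase on. Nr1d1 and Nr1d2 (REV-ERB) repress, and the ROR receptors drive, genes with ROR elements such as Arntl, Npas2 and Nfil3, which puts the targets of E-boxes and of ROR elements on opposite phases. Fibroblasts build the dermal matrix and keep a running clock in culture.

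Between 550 and 1375 cells were kept per library, with 378 to 1001 fibroblasts and 8211924 to 22200122 fibroblast UMIs. Fibroblasts made up 70.1% ± 3.62 of kept cells at ZT10 and 72.0% ± 2.93 at ZT22 (SD, n = 3), a difference within the spread between libraries (exact permutation test, two-sided, p = 0.6, where 3 against 3 cannot go below 0.1). The 10 fibroblast markers summed to 80046 to 114098 counts per 1000000 UMIs (CPM) in the fibroblast sums at ZT10 and to 77474 to 104395 at ZT22, and none of them was called. Ptprc was at 0 by the gate. Of the lists of other cells, the immune list summed to 13.2 to 16.6 CPM at ZT10 and 12.5 to 27.3 at ZT22 with Cd3e at 0. The keratinocyte list summed to 159 to 382 and 125 to 225 with Krt5 and Krt14 at 0, the muscle list to 28.6 to 58.3 and 7.30 to 139, and the red blood cell list to 101 to 1667 and 246 to 972. Groups overlapped in all 4 lists. At the edge of the gate, 258 fibroblasts had just 1 UMI of Pdgfra and 147 cells were left out for having none, while 1 fibroblast had 20 to 24 collagen UMIs and 0 cells with 15 to 19 were left out on collagen alone. The median mitochondrial share of fibroblasts was higher at ZT10 (2.26% ± 0.176) than at ZT22 (2.00% ± 0.0772), without overlap, and the summed markers of endothelial cells (5.0 to 6.42 against 2.92 to 4.70 CPM) and of Schwann cells and melanocytes (51.8 to 62.7 against 38.2 to 51.2) also did not overlap. These 3 measures move with the comparison in fibroblasts, none of their list members was called, and their part in the results was not tested. At most 1 barcode was shared by any pair of the 6 libraries.

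In fibroblasts, 135 genes were higher (1.08%) and 171 lower (1.37%) at ZT22 at an adjusted p under 0.05, 306 of 12500 genes tested (2.45%). The size of most changes was modest, with a median fold of 1.59 among the higher and 1.62 among the lower genes, and 37 and 47 genes changed over 2-fold. Changes over 4-fold were found for 7 higher and 12 lower genes, and 5 and 8 of these belong to the clock lists described next. The test was edgeR's quasi-likelihood F test, adjusted by Benjamini-Hochberg over all genes, in 1 fit of all 18 libraries (DESeq2 called 441 genes, 3.54%). With the replicate number as a block and the 6 libraries alone, 968 genes were called, 369 higher and 599 lower, and leaving out 1 of the 6 libraries gave 147 to 209, with the largest loss without ZT22 replicate 2. The level of a gene is given in CPM, counts per 1000000 UMIs of the library's sum over the genes tested, after TMM scaling (trimmed mean of M values). A difference is given as log2 of ZT22 over ZT10. Summed markers are given per 1000000 UMIs of the library's whole sum for the cell class, without TMM scaling. In these sums, fewer cells that express a gene and less RNA per cell cannot be told apart. Exons of 21 of the 60 called genes that the naming rule takes overlap those of a gene on the opposite strand (Nr1d1 with Thra and Dbp with Sphk2, for example), and exons of Ephx1, Fdps and Klhl13 overlap a gene on the same strand; whether the counting used strand is not given in the sources used here, so these values may hold reads of the partner.

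**Figure D1:**
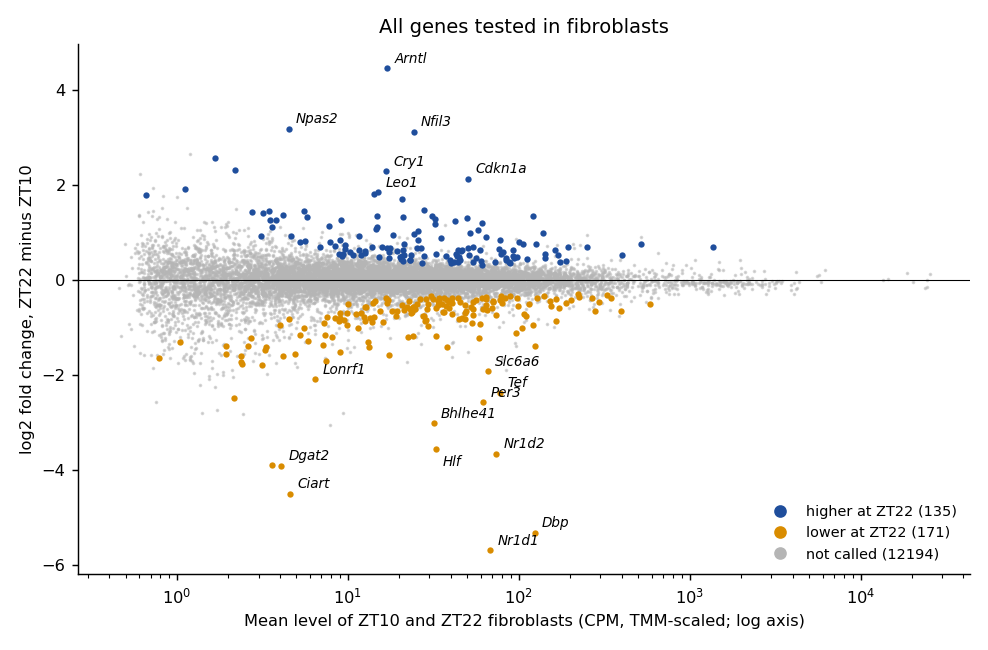
Each point is a gene tested in fibroblasts, with its mean level at ZT10 and ZT22 on a log axis (CPM) and its log2 fold change, ZT22 minus ZT10; blue genes were called higher (135), orange genes lower (171) and grey genes were not called (12194). The gene farthest above 0 is Arntl at 4.45 and the gene farthest below 0 is Nr1d1 at -5.69, both clock genes. Most called genes lie within 1 log2 unit.

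Of the 7 activators of the loop, 3 rose and 1 fell at ZT22 among 6 tested, where 2.45% of all genes tested were called. Arntl was measured at 2.54, 1.25 and 0.667 CPM in the 3 ZT10 libraries and at 32.3, 31.5 and 33.9 in the 3 ZT22 libraries. All ZT22 libraries were far above all ZT10 libraries, a log2 difference of 4.45 (SE 0.32, adjusted p = 1.17e-06). Npas2, which can take the place of Clock, stood at 0.453, 0.910 and 1.33 and rose to 7.72, 6.97 and 9.61 (log2 3.17, SE 0.37, adjusted p = 4.34e-05). Clock itself moved less, from 36, 39.1 and 38.7 to 75.4, 79.8 and 78.8, with libraries close to each other within each time. In the fit of all 18 libraries its difference of 1.04 (SE 0.10) had an adjusted p of 3.75e-06. The ROR receptor Rora went the other way, from 201, 192 and 174 at ZT10 to 139, 149 and 139 at ZT22. Its groups did not overlap, but the log2 difference was only -0.41 (adjusted p = 0.0397), and the call was lost when any 1 of the 6 libraries was left out (adjusted p up to 0.154). Arntl2 and Rorb were not called.

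Of the 10 repressors, 6 fell, Cry1 rose and 3 were not called, where 2.45% of all genes tested were called. All 10 had groups that did not overlap, against 23.0% of all genes tested. Nr1d1 had the largest fold of all genes tested, with 151, 119 and 128 CPM at ZT10 and 0.930, 1.9 and 6.81 at ZT22. Even its highest ZT22 library was far below its lowest ZT10 library, although the ZT22 libraries differed widely among themselves (log2 -5.69, SE 0.53, adjusted p = 6.18e-05). With the replicate block and the 6 libraries alone its adjusted p was 0.104. Its relative Nr1d2 fell from 138, 133 and 139 to 7.21, 12 and 14 (log2 -3.66, SE 0.21, adjusted p = 1.54e-07). Ciart, which represses the BMAL1 complex, was found at 8.16, 9.25 and 9.0 at ZT10 and at 0.279, 0.370 and 0.608 at ZT22, only 5 to 7 UMIs per ZT22 library (log2 -4.51, SE 0.49). Bhlhe41 (DEC2), a repressor that binds E-boxes, fell from 49.96, 59.3 and 60.5 to 6.28, 6.81 and 8.02 (log2 -3.03, SE 0.20).

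Among the Period genes, Per3 showed the strongest difference, with 96.1, 108 and 113 at ZT10 and 12.9, 20.2 and 20.7 at ZT22 (log2 -2.58, SE 0.22, adjusted p = 1.02e-05). Per1 fell from 45.5, 44.9 and 46.4 to 21.6, 18.2 and 20.3, with ZT10 libraries that were almost equal (log2 -1.19, SE 0.20, adjusted p = 0.00417). For Per2 the levels were 16, 29.1 and 17 at ZT10 and 9.86, 12.6 and 9.24 at ZT22. They did not overlap, and 1 ZT10 library stood well above the others. The Per2 difference of -0.98 was not called (adjusted p = 0.103; 0.0356 with the replicate block over 18 libraries and 4.80e-04 over 6). It was also not called when any 1 of the 6 libraries was left out. Per2 was at its highest mean at ZT14 and its lowest at ZT2 over the 6 times, so ZT10 and ZT22 were not its extremes. Cry1 was the one repressor that rose, from 5.17, 8.72 and 2.33 to 31.1, 29.3 and 23.7 (log2 2.28, SE 0.28, adjusted p = 2.81e-04; 0.0513 from the 6 libraries alone without the block). Its paralog Cry2 was at 51.4, 53.1 and 54 and 38.3, 39.9 and 44, a log2 difference of -0.38 that was not called (adjusted p = 0.0912). With the replicate block the adjusted p of Cry2 was 0.0958 over 18 libraries and 0.0101 over 6. Bhlhe40 (DEC1) was at 111, 118 and 78.9 and 64.9, 56.2 and 30.3, also not called (log2 -1.01, adjusted p = 0.137; 0.0303 with the replicate block over 18 libraries and 5.58e-04 over 6).

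The PAR bZIP factors Dbp, Tef and Hlf activate genes with D-box motifs, and Nfil3 (E4BP4) represses through the same motif. All 4 were called, against 2.45% of all genes tested, and in opposite directions. Dbp was at 235, 253 and 237 CPM at ZT10 and at 5.86, 6.02 and 6.2 at ZT22, with little spread in either group (log2 -5.33, SE 0.48, adjusted p = 4.54e-05). Hlf fell from 55.4, 65.1 and 59.6 to 4.05, 4.38 and 7.66 (log2 -3.57, SE 0.28) and Tef from 113, 146 and 132 to 19, 25.1 and 31.9 (log2 -2.39, SE 0.22). Nfil3 rose from 4.17, 5.22 and 5.89 to 54.8, 45.7 and 30.2 (log2 3.11, SE 0.28, adjusted p = 1.87e-05). No ZT22 library overlapped a ZT10 library for any of the 4. The same held for all 135 higher and 171 lower genes called, and for 23.0% of all genes tested.

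Of 8 genes known to follow the clock in other tissues, 3 fell, 1 rose and 4 were not called, where 2.45% of all genes tested were called. The mitotic kinase Wee1 fell from 33.7, 32 and 29.1 to 12.3, 16.3 and 12.3 (log2 -1.21, SE 0.21, adjusted p = 0.00354), the tetraspanin Tspan4 from 157, 189 and 193 to 70.5, 68.3 and 65.3 (log2 -1.40, SE 0.16), and Por, the reductase that feeds cytochrome P450 enzymes, from 138, 138 and 122 to 53.3, 67 and 61.8 (log2 -1.13, SE 0.11). Cdkn1a (p21), an inhibitor of the cell cycle, rose from 19.3, 23.8 and 12.9 to 92.1, 96.1 and 59 (log2 2.12, SE 0.39, adjusted p = 0.0109), and the call was lost without ZT10 replicate 3 (adjusted p = 0.0586). Coq10b, at log2 -0.53 (adjusted p = 0.0912), was among those not called. With the replicate block its adjusted p was 0.0846 over 18 libraries and 0.00195 over 6. The kinases and ubiquitin enzymes that set the lifetime of clock proteins were flat in comparison: the 7 tested of 8 ran from -0.22 to 0.10. Of these, 0 were called by edgeR, with 1 at an unadjusted p under 0.05 and 0 called by DESeq2. Over all 12500 genes, 306 were called by edgeR and 1778 had an unadjusted p under 0.05, so these counts do not set the 7 apart. The median over all genes tested was 0.00.

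**Figure D2:**
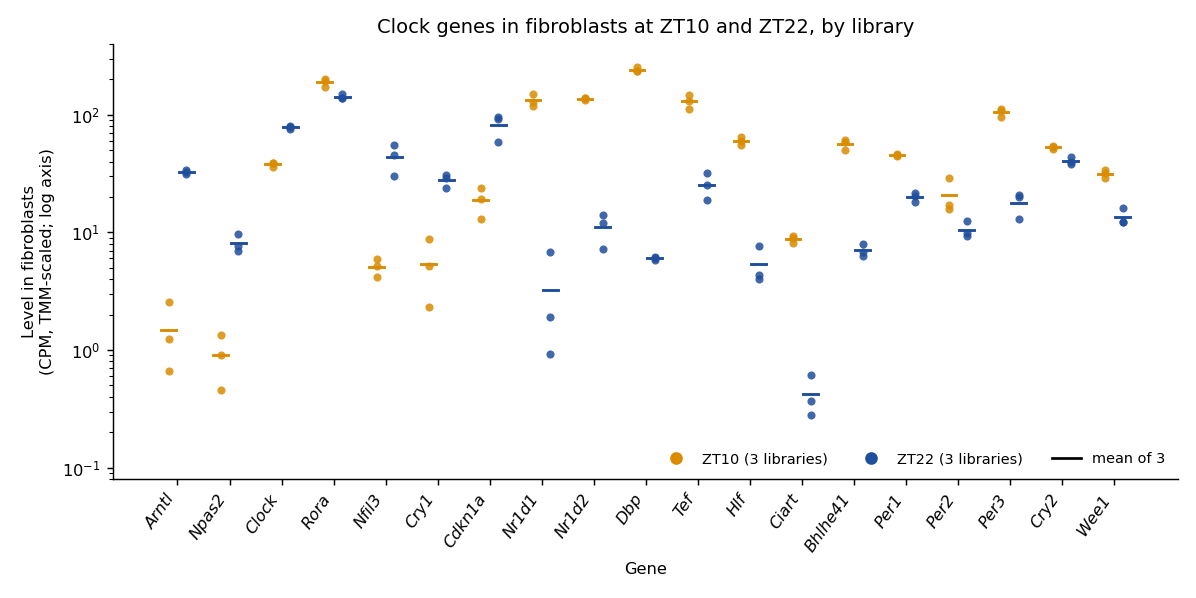
Level of 19 clock genes in fibroblasts on a log axis (CPM), with 1 point per library (3 at ZT10 in orange, 3 at ZT22 in blue) and a line at each mean. Arntl, Npas2, Clock, Nfil3, Cry1 and Cdkn1a are higher in every ZT22 library, and the other 13 genes are lower in every ZT22 library, of which Per2 and Cry2 were not called. The 19 are a choice from the clock lists, all without overlap. Of the members tested, groups did not overlap for 4 of 6 activators, 10 of 10 repressors and 4 of 4 PAR bZIP factors with Nfil3. The counts were 2 of 7 for kinases and ubiquitin enzymes and 5 of 8 for known outputs.

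Short stretches of the start regions of 8 clock genes and of Leo1, which is outside the clock lists, are shown because both directions were found among genes that carry the clock's motifs. Each is 30 bases around a match, in the direction of the gene, from RefSeq's GRCm38.p6 promoter table (250 bases before to 50 after each gene start), and capitals mark the match. The E-box was searched as CACGTG and its variant, the E'-box, as CACGTT. The ROR element core was searched as TAGGTCA or TGGGTCA and the D-box as TTATGTAA or TTACGTAA, and all were searched on both strands.
Arntl (ROR core, chr7:113207530-113207559, + strand, higher at ZT22): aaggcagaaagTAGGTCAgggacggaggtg
Nfil3 (ROR core on the other strand, chr13:52981033-52981062, - strand, higher): gcgctcggaacTGACCTActaacacacatc
Leo1 (ROR core, chr9:75441450-75441479, + strand, higher): ctggagaaaacTAGGTCAcaaaagtaaagt
Cry1 (E-box, chr10:85185097-85185126, - strand, higher): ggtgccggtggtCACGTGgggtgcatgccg
Per1 (E-box, chr11:69098771-69098800, + strand, lower at ZT22): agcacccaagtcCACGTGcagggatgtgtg
Ciart (E-box, 1 of 3, chr3:95882327-95882356, - strand, lower): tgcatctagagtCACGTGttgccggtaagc
Bhlhe41 (E-box, chr6:145865556-145865585, - strand, lower): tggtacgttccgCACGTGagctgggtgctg
Tef (E-box, 1 of 2, chr15:81802534-81802563, + strand, lower): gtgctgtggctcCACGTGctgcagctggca
Per3 (D-box, 1 of 2, chr4:151044852-151044881, - strand, lower): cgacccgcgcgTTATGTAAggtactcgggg
Among the 19 clock genes called, 18 have a window in the table, and the E-box was found in 6 of them, Cry1 among the higher genes and Per1, Ciart, Bhlhe41, Tef and Tspan4 among the lower. The E-box is held by 8.09% of the 27025 genes of the table, by 11.7% of the genes tested in fibroblasts, by 11.5% of the genes called higher and by 22.9% of those called lower (32 of 140 with a window). The ROR core is held by 7.35% of the table's genes, 6.05% of those tested, 7.69% of those called higher and 4.29% of those called lower, and the D-box by 1.23%, 0.872%, 0.962% and 2.14%. The E'-box is held by 5.44% of the table's genes, 6.4% of those tested, 5.77% of those called higher and 9.29% of those called lower. Among the clock genes called it was found in Cry1 and Nr1d1. Clock genes without a match, such as Dbp and Nr1d2, hold none of these letters in this window, and no more is said by it.

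Outside the clock lists, the 12 genes with the largest rise and at least 10 CPM came from several processes. Leo1, a subunit of the PAF1 complex that travels with RNA polymerase II, was at 7.89, 5.75 and 6.23 CPM at ZT10 and 23.7, 24.5 and 22.1 at ZT22 (log2 1.84, SE 0.16, adjusted p = 1.54e-06). Rin3, an exchange factor for Rab5, rose from 5.35, 6.9 and 6.67 to 21.9, 18.6 and 26.3 (log2 1.80, SE 0.20), and Alkal2, a ligand of the receptor ALK, from 11, 9.34 and 9.0 to 27.7, 38.9 and 28 (log2 1.70, SE 0.22). In all 3 genes every ZT22 library was above the highest ZT10 library. This was required by the choice of the 12 among called genes without overlap. A pair of GTPase-activating proteins was among the 12: Arhgap18 at log2 1.46 (SE 0.16, adjusted p = 1.96e-05) and Arhgap20 at 1.34 (SE 0.19), the latter from 60.9, 65.5 and 78 to 154, 155 and 209. Klhl13, an adaptor of a cullin ubiquitin ligase (1.29), the ubiquitin ligase Rnf144a (1.25) and Sytl2, a partner of Rab27 (1.27), rose by similar log2 amounts. Il18r1, a subunit of the interleukin 18 receptor, was at 29.8, 13 and 10.1 and 49.6, 38 and 45.2 (log2 1.33, adjusted p = 0.0267), and the cyclic nucleotide phosphodiesterase Pde3a at 19.9, 8.43 and 8.0 and 33.8, 30.2 and 25.3 (log2 1.32, adjusted p = 0.0228). For both, ZT10 replicate 1 was the ZT10 library nearest to ZT22. The Il18r1 call was lost without each single library but ZT10 replicate 1, the Pde3a call without ZT10 replicate 2 or 3 or ZT22 replicate 1 or 2 (adjusted p up to 0.116 and 0.105), and the Rnf144a call without ZT10 replicate 2 (0.0634). With the replicate block and the 6 libraries alone, the adjusted p was 0.188 for Il18r1 and 0.0576 for Pde3a. The largest adjusted p under any alternative run was 0.228 for Il18r1 and 0.180 for Pde3a.

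The 12 genes with the largest fall included membrane transport, signalling and metabolic genes. Slc6a6, the taurine transporter, was at 84, 121 and 106 CPM at ZT10 and 18.9, 30.3 and 33.3 at ZT22 (log2 -1.93, SE 0.24, adjusted p = 3.50e-04). Lonrf1 had the largest fall of the 12, from 11.9, 12.8 and 6.34 to 1.91, 2.54 and 3.16 (log2 -2.10, SE 0.36, adjusted p = 0.00352). Ptgfr, the receptor of prostaglandin F2-alpha, fell from 13.4, 12.4 and 8.56 to 3.21, 3.86 and 3.4 (log2 -1.72, SE 0.32). In these 3 the highest ZT22 library was below the lowest ZT10 library, which the same choice required. Cpeb1, which binds cytoplasmic polyadenylation elements (-1.60), the transcription factor Klf11 (-1.53), the G protein-coupled receptor Gpr146 (-1.42) and Pik3ip1, an inhibitor of PI3 kinase (-1.41), fell by between 1 and 2 log2 units. Pfkfb3, which makes the activator of phosphofructokinase, fell from 11.3, 11.2 and 7.89 to 3.53, 3.06 and 5.71 (log2 -1.37, SE 0.25, adjusted p = 0.00464). Cacnb4, a calcium channel subunit (-1.31), the ciliary protein gene Cys1 (-1.23), the glutathione transferase Gstt2 (-1.19) and Mamstr, a coactivator of MEF2 (-1.18), completed the 12. Cacnb4 lost its call without ZT10 replicate 3 or ZT22 replicate 1 or 2 (adjusted p up to 0.152), and Cys1 without each single library but ZT10 replicate 1 (up to 0.101). Cpeb1, Klf11, Gpr146 and Pfkfb3 hold an E-box in the window described above.

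Of the 14 other gene lists, most had few or no called members, against 2.45% of all genes. Lipid and sterol synthesis had the most called by edgeR, 3 higher and 1 lower of 27 tested, with a list median of 0.24. DESeq2 called 4 of its members, against 441 of all genes (3.54%). By edgeR 12 members had an unadjusted p under 0.05, against 1778 of all 12500 genes. Fdps, which makes farnesyl diphosphate, rose from 9.79, 8.53 and 6.56 to 18, 20.6 and 25 (log2 1.33, SE 0.20, adjusted p = 9.43e-04). Srebf2, the transcription factor of the sterol pathway, rose from 35.6, 34.1 and 35.4 to 40.4, 53 and 60.4 (log2 0.54, adjusted p = 0.0228). Dgat2, which completes triglycerides, went the other way, from 7.71, 7.67 and 7.56 to 0.558, 0.370 and 0.608 (log2 -3.92, SE 0.32, adjusted p = 1.13e-06). The Srebf2 call was lost without each single library but ZT22 replicate 1 (adjusted p up to 0.125), while those of Fdps and Dgat2 were kept without each of the 6.

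In the list of endoplasmic reticulum folding and secretion, edgeR called Calr and Sdf2l1, both higher, among 26 tested, and the list median was 0.26. DESeq2 called 8 of its members, more than in lipid and sterol synthesis, and 441 of all genes (3.54%). An unadjusted p under 0.05 by edgeR was found for 15 members, and for 1778 of all 12500 genes. Calr, a calcium-binding chaperone, was at 359, 348 and 455 and 649, 697 and 597 (log2 0.74, SE 0.16, adjusted p = 0.0127), and Sdf2l1, a helper of the chaperone BiP, at 22.6, 21.1 and 33 and 57.3, 65.9 and 54.7 (log2 1.23, adjusted p = 0.0110). Hsp90b1 was at log2 0.56 and was not called (adjusted p = 0.0857). With the replicate block its adjusted p was 0.115 over 18 libraries and 6.97e-04 over 6. Of the 26 members 20 had a log2 difference above 0 and 18 had groups that did not overlap, against 50.08% and 23.0% of all genes tested. The Calr call was lost without replicate 1 or 2 of either time, and the Sdf2l1 call without ZT10 replicate 1 or 2 or ZT22 replicate 2 (adjusted p up to 0.0724 and 0.0611). The cold-inducible RNA-binding proteins Rbm3 and Cirbp were the only members of 19 in the heat and cold list called by edgeR, both lower at ZT22. Rbm3 fell from 313, 352 and 367 to 222, 199 and 234 (log2 -0.66, SE 0.11, adjusted p = 0.00123). Cirbp fell from 52.1, 49.2 and 78.9 to 36, 37.9 and 39 (log2 -0.67, adjusted p = 0.0340, and up to 0.167 without ZT10 replicate 3 or any single ZT22 library). Over the 6 times Cirbp had its lowest mean at ZT14 (24.4) and was at 54.7 at ZT2, so ZT22 was not its lowest time. The mean log2 level of ZT18 and ZT2 minus that of ZT6 and ZT14 was 0.50 for Cirbp and -0.29 for Rbm3.

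The platelet phosphofructokinase Pfkp was the 1 called member of 14 glycolysis genes, higher by log2 0.36 (SE 0.08, adjusted p = 0.0186; up to 0.0854 without replicate 2 or 3 of ZT10 or 1 or 3 of ZT22), and Il18r1 the 1 of 8 interleukin 1 family genes. No member was called by edgeR in the lists of glucocorticoid response (15 tested), immediate early genes (20), collagen chains (16), collagen modification (19), NRF2 targets (17), interferon-stimulated genes (24), cell cycle (20), oxidative phosphorylation (81) and ribosomal proteins (81). At an unadjusted p under 0.05 these lists held 2, 3, 1, 4, 1, 1, 2, 7 and 0 members, and DESeq2 called 0, 2, 1, 2, 1, 0, 0, 1 and 0 of them. Over all 12500 genes tested, edgeR called 306 (2.45%) and 1778 had an unadjusted p under 0.05, while DESeq2 called 441 (3.54%). At such shares lists of this length hold few or no calls, so 0 calls do not set them apart from all genes. The medians of these lists lay between -0.20 and 0.21 on the log2 scale. The immediate early gene Fos, at 2613, 2408 and 2394 and 2184, 2107 and 2157, is an example of an abundant gene whose groups did not overlap and that was not called (log2 -0.20, adjusted p = 0.636). The values of Col1a1, Col1a2, Col3a1 and Pdgfra are set in part by the gate and are not read.

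**Figure D3:**
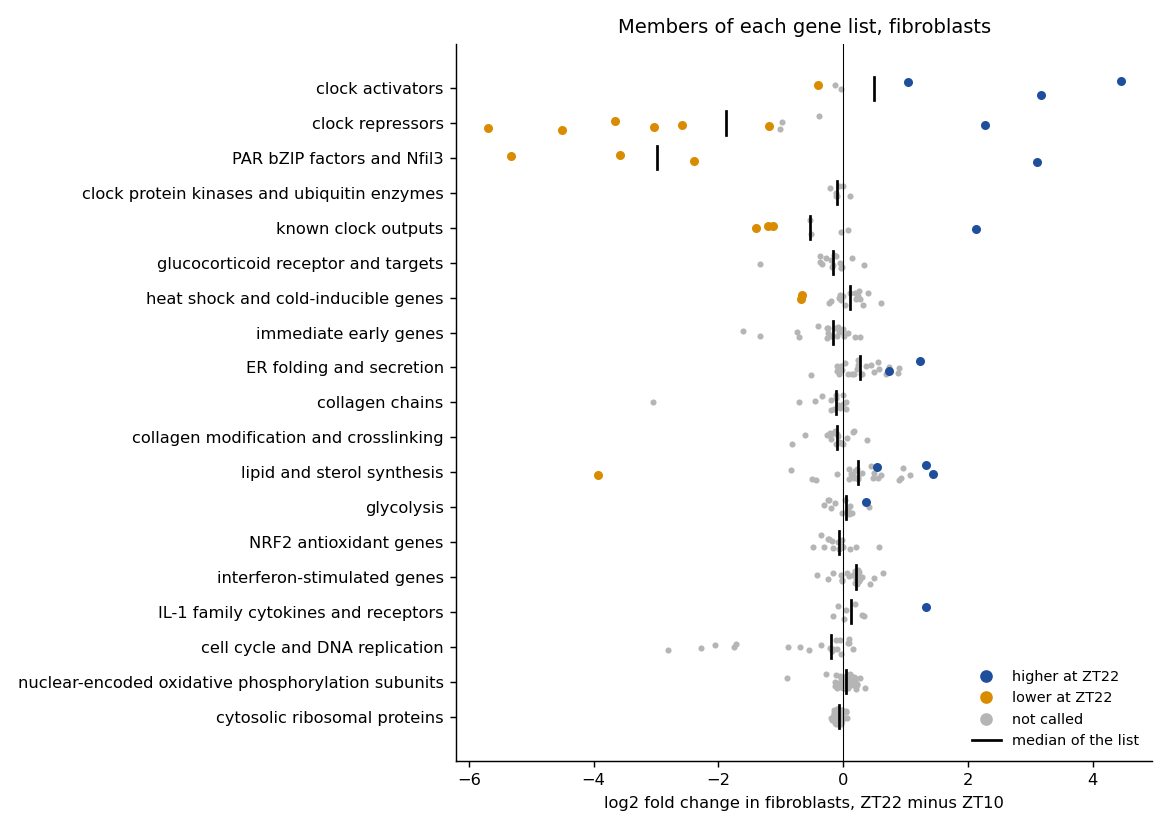
Log2 fold change in fibroblasts, ZT22 minus ZT10, of every tested member of the 19 gene lists, with 1 point per gene and a black line at each list's median; blue points were called higher, orange lower and grey not called. The clock lists spread from -5.69 to 4.45, and the ribosomal protein list lies within -0.19 and 0.06.

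In the sums over all kept cells, 54 genes were higher and 67 lower at ZT22 of 13816 tested (0.876%). Of these, 54 of 54 and 65 of 67 were also called in the fibroblast sums, which hold the larger part of the UMIs. The shared genes made up 40.0% and 38.01% of the fibroblast calls. The other two were Plekho2 (log2 -0.35, adjusted p = 0.0357) and a predicted gene without a name. Arntl differed by 4.07 and Per1 by -1.12 in all cells. For Nfil3 the difference was 1.64 (adjusted p = 0.0473), with 0.0631 under a replicate block over 18 libraries and 5.37e-05 under one over the 6 libraries alone. Cdkn1a (1.06) and Rora (-0.37) were called only with the block over the 6 libraries (adjusted p = 0.00613 and 0.0281). The Nfil3, Per1 and Plekho2 calls were lost when any 1 of the 6 libraries was left out (adjusted p up to 0.218, 0.103 and 0.160). Among the 12 largest of each direction in all cells, genes not described above were Spon2 and Sh3pxd2b, both higher, and Ephx1, Cygb, Shld2, Rnaseh2b, Ptgis and Tmtc1, all lower. Ephx1, the microsomal epoxide hydrolase, was in fibroblasts at 137, 146 and 137 and 61.7, 71.1 and 75.6 (log2 -1.01, SE 0.11), and Ptgis, the prostacyclin synthase, at 184, 224 and 232 and 113, 121 and 113 (log2 -0.88, adjusted p = 0.0128; up to 0.0665 without each single library but ZT10 replicate 1). The replicate block with the 6 libraries alone gave 423 calls in all cells, DESeq2 gave 236 (1.76%), and leaving out 1 of the 6 libraries gave 54 to 80.

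Kept cells with at least 1 UMI of Ptprc (CD45, the marker of blood-derived cells) and under 20 collagen UMIs, 1017 in the 6 libraries, were summed in the same way to show where fibroblasts differ. They gave 932830 to 3407949 UMIs per library, and 2 of 9585 genes were called (0.0209%), Arntl higher and Nr1d2 lower (0.0104% each), with 514 at an unadjusted p under 0.05 and 7 called by DESeq2 (0.0407%). Arntl rose from 5.67, 3.96 and 1.17 to 42.2, 23.9 and 28.5 (log2 2.96, SE 0.47, adjusted p = 0.0239). That call was lost without any single library but ZT22 replicate 2, and without ZT18 replicate 1, a library that enters only through the estimate of spread. Nr1d2 fell from 69.9, 57.3 and 103 to 6.93, 11.8 and 11.6 (log2 -2.95, SE 0.31, adjusted p = 9.25e-05). Several other clock genes differed in the direction seen in fibroblasts, without overlap and without a call: Dbp at log2 -3.41 (adjusted p = 0.0749), Nr1d1 at -2.98 (0.191), Tef at -1.80 (0.191), Per1 at -1.12 (0.0749) and Per3 at -1.61 (0.681). In these cells groups did not overlap for 5 of the 10 repressors tested and 2 of the 3 tested among the PAR bZIP factors and Nfil3. Of all genes tested in these cells, 12.0% had no overlap. With the replicate block and the 6 libraries alone, 13 genes were called, and the adjusted p was 0.0210 for Nr1d1 and 0.0287 for Tef. It was 0.0643 for Per3, 0.110 for Dbp and 0.223 for Per1 in that run. With the block over 18 libraries the adjusted p of these genes ran from 0.0857 for Tef to 0.809 for Per3. The fibroblast markers summed to 315 to 464 CPM in these cells, against at least 77474 in fibroblasts, a contrast that the gates on collagen and Pdgfra set in part.

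The difference between the effects in the 2 cell classes, tested as the interaction of class and time within libraries, passed for 8 of 8824 genes (0.0907%). Ciart differed most: in Ptprc-positive cells it was at 36.9, 25.6 and 33.8 at ZT10 and 45.9, 51.4 and 12.7 at ZT22, with groups that overlapped, while in fibroblasts it nearly disappeared at ZT22 (difference of the log2 effects -4.86, SE 0.54, adjusted p = 0.000118). Nfil3 was at 85, 92.9 and 76.9 and 43.9, 81 and 87.6 in Ptprc-positive cells, again with overlap, and its rise in fibroblasts differed from this (difference 3.45, SE 0.57, adjusted p = 0.0388). The effect was more negative in fibroblasts for Bhlhe41 (-2.40, adjusted p = 0.0179), Slc6a6 (-1.64, 0.0114), Gpr146 (-1.66, 0.0179) and Sord, the sorbitol dehydrogenase (-1.30, 0.0427). In Ptprc-positive cells these were at log2 -0.63, -0.32, 0.27 and 0.32. For Arhgap18 (1.41, 0.0189) the effect was more positive in fibroblasts, and it was at 0.04 in Ptprc-positive cells. Arhgef10l, a guanine nucleotide exchange factor, fell in fibroblasts (log2 -0.66, adjusted p = 0.0127; up to 0.0870 without ZT10 replicate 3 or ZT22 replicate 2) and was at log2 0.74 in Ptprc-positive cells (difference -1.40, adjusted p = 0.0209). Cry1, at 8.98, 14.8 and 17.5 and 14.1, 13.1 and 16.9 in Ptprc-positive cells, and Rin3 just missed the threshold (differences 2.19 and 1.90, adjusted p = 0.0546 and 0.0540). For Arntl, Dbp, Nr1d1 and Nr1d2 the differences of 1.38, -1.91, -2.97 and -0.81 were not called (adjusted p from 0.416 to 0.468). Of the 8 calls only Ciart was kept without each single library in turn, where 1 to 7 genes were called (2 without ZT10 replicate 2, and 1 without ZT10 replicate 3 or ZT22 replicate 1), and the Ptprc-positive class was not divided into its cell types.

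**Figure D4:**
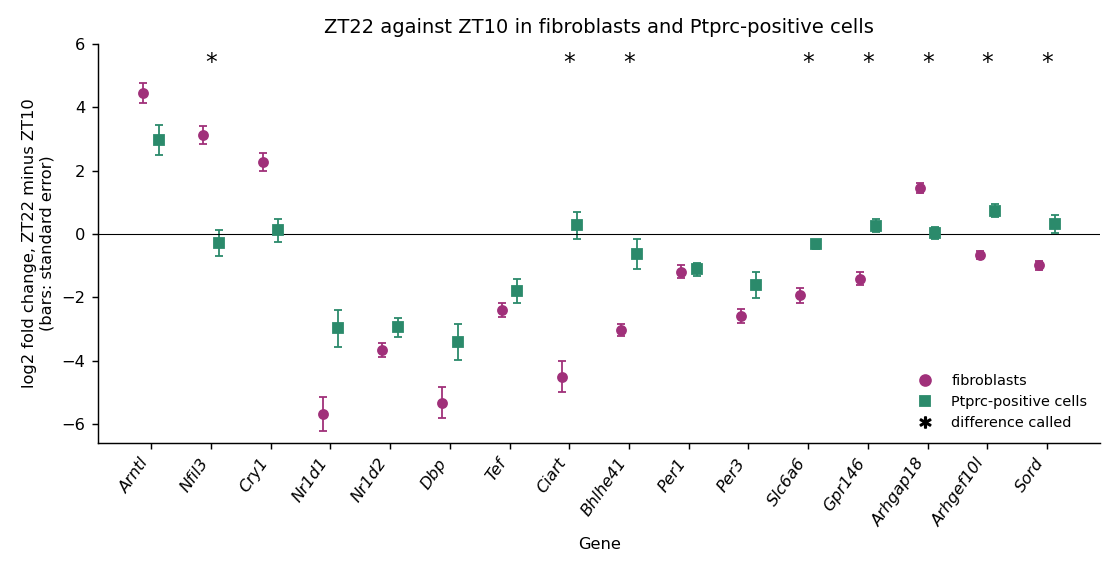
Log2 fold change, ZT22 minus ZT10, with its standard error for 16 genes in fibroblasts (circles) and Ptprc-positive cells (squares); asterisks mark the 8 genes whose effect differed between the classes. Arntl, Nr1d1, Nr1d2, Dbp, Tef, Per1 and Per3 lie on the same side of 0 in both. Ciart, Nfil3, Bhlhe41, Cry1, Slc6a6, Gpr146 and Arhgap18 are far from 0 only in fibroblasts, and the Cry1 difference was not called. In Ptprc-positive cells they run from -0.63 (Bhlhe41) to 0.28 (Ciart).

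The other 12 libraries, which did not enter the means, gave a description of the same genes at the times 4 h to either side. The mean of ZT18 and ZT2 minus the mean of ZT6 and ZT14 had the same sign as ZT22 minus ZT10 for 130 of the 135 higher genes (96.3%) and 164 of the 171 lower genes (95.9%), against 60.6% of all 12500 genes. These libraries entered the choice of genes through the estimate of spread, and for the 396 genes called from the 6 libraries alone the shares were 157 of 169 and 210 of 227. Over the 6 times, 67 of the 135 higher genes had their highest mean at ZT22 and 54 at ZT2, and 97 had their lowest at ZT10. Among all 12500 genes the counts were 1535, 2042 and 1858. Of the 171 lower genes, 121 had their highest mean at ZT10 and 31 at ZT14, and 95 had their lowest at ZT22. Among all genes these were 1883, 3179 and 1690. The called genes were chosen on their ZT10 and ZT22 means, so their highest and lowest times are set in part by that choice. The clock genes followed several courses: Arntl, with means of 1.48 at ZT10 and 32.6 at ZT22, was at 29.0 at ZT2 and 17.5 at ZT18, and Dbp, with 242 at ZT10 and 6.03 at ZT22, was at 169 at ZT6 and 117 at ZT14. Nr1d1 had means of 142 at ZT6, 133 at ZT10 and 43.4 at ZT14, and Cry1 had its lowest mean at ZT6 (2.23). Npas2 had means of 8.10 at ZT22 and 8.32 at ZT2. Cdkn1a was at 70.9 at ZT2 but at 25.5 at ZT18, so the neighbours of ZT22 differed from each other.

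**Figure D5:**
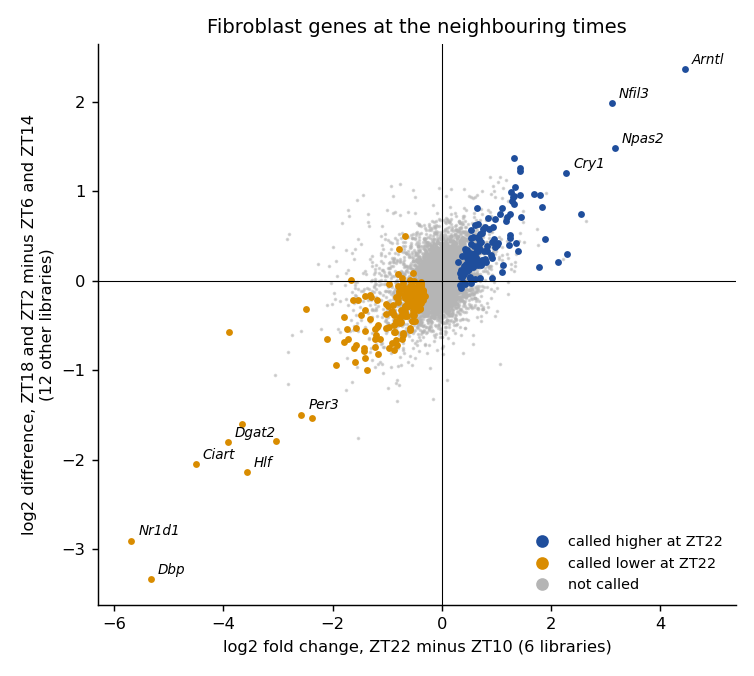
Each point is a gene in fibroblasts, with its log2 fold change between ZT22 and ZT10 (6 libraries) against the log2 difference between ZT18 with ZT2 and ZT6 with ZT14 (12 other libraries); called genes are blue (higher) and orange (lower). Of the called genes 130 of 135 lie in the upper right and 164 of 171 in the lower left, and for Arntl, Nr1d1 and Dbp the differences at the neighbouring times are smaller than those between ZT22 and ZT10.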

How the data were processed

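Dermal single-cell libraries of 18 mice were analysed. The authors counted UMIs per gene and barcode with Cell Ranger 3.1.0 on mm10, per the submitters' processing notes, and deposited the raw counts as 1 matrix per library, without normalization and before their filter on cells. Gene identifiers and barcodes were read from the accompanying files, and no column was left unused (0). Cells were gated on counts as described above, with the cut-offs on detected genes and mitochondrial UMIs taken from the study's methods; cells were not clustered, and doublets were not called.

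Counts were summed per library and cell class and tested with edgeR 4.0.16 (TMM, filterByExpr on the 6 libraries, robust quasi-likelihood test, Benjamini-Hochberg adjustment over all genes tested) in R 4.3.3, with 1 mean per time over 18 libraries. Sums held 8211924 to 22200122 UMIs in fibroblasts and 932830 to 3407949 in Ptprc-positive cells, so a level of 1 CPM rests on few UMIs in the latter. DESeq2 1.42.0 was an alternative, and so were the 6 libraries alone, a replicate block, size factors by relative log expression (RLE), no filter on low counts, other gates, thinning to equal depth and leaving out each library. SE is the log2 difference over the square root of F. Scripts were tested on simulated data. Python 3.11.15 with pandas 2.3.3, scipy 1.17.1 and matplotlib 3.10.9 was used.

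Same-numbered ZT10 and ZT22 libraries share a day by the collection hours in the labels. Their deviations from the group means correlated over genes at r = 0.301, 0.0907 and 0.299 in fibroblasts, 0.211, 0.198 and 0.436 in all cells and 0.00871, 0.186 and 0.21 in Ptprc-positive cells. Pairs with unlike numbers ran from -0.281 to 0.00894 in fibroblasts, -0.331 to 0.174 in all cells and -0.218 to 0.107 in Ptprc-positive cells. Deviations from a mean of 3 libraries are tied to each other, so the values of like and unlike pairs are not independent.

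The named genes are all members of the clock lists, the 12 largest folds per direction among called genes with at least 10 CPM and no overlap, up to 4 members of each other list, and the genes of the difference test; the values of 2 list members are not reported here. The comparison, its members and the gene lists were chosen with earlier results of these data known. One library, ZT18 replicate 1, was left out in an alternative chosen after seeing the data.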

Additional observations from a re-analysis of the deposited data

Results flagged for a closer look

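For 8 genes the effect of time differed between fibroblasts and Ptprc-positive cells by the test of the difference itself (edgeR's quasi-likelihood test of the interaction, Benjamini-Hochberg adjustment over 8824 genes, 36 sums from 18 libraries). As log2 effect in fibroblasts minus log2 effect in Ptprc-positive cells, the values were -4.86 for Ciart, -2.40 for Bhlhe41, -1.66 for Gpr146, -1.64 for Slc6a6, -1.40 for Arhgef10l and -1.30 for Sord, so that the effect was more negative in fibroblasts, and 3.45 for Nfil3 and 1.41 for Arhgap18, so that it was more positive there. The 3 clock genes among them, Ciart, Bhlhe41 and Nfil3, had log2 effects of 0.28, -0.63 and -0.30 in Ptprc-positive cells, none of them called.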

How the results depend on the processing

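Of 1437 values of single genes under the alternatives, 1268 kept their direction and side of the threshold, 141 fell short of it, 26 newly passed it and 2 turned in direction; the cause was not tested where it is not fewer samples. The turned values were those of Cry1 in Ptprc-positive cells, at -0.11 when thinned to equal depth and from -0.13 to 0.27 without 1 library (lowest without ZT10 replicate 1). Of the 60 fibroblast calls that the naming rule takes, 44 were kept without each of the 6 libraries in turn and 41 under each alternative run. DESeq2 called 236 genes in all cells and 7 in Ptprc-positive cells. The 6 libraries alone without a block called 89 genes in all cells and 396 in fibroblasts. Of these, 69 and 255 were shared with the reported calls. A replicate block with the 6 libraries alone called 423 genes in all cells, 968 in fibroblasts and 13 in Ptprc-positive cells; among the first 2 counts, 113 and 298 genes were shared with the reported calls, and with a block over 18 libraries the counts were 122, 369 and 2. Beside the changes given in the text, the block over 6 libraries lost Cygb in fibroblasts (adjusted p = 0.0990). Leaving out 1 of the 6 libraries gave 54 to 80 calls in all cells, 147 to 209 in fibroblasts, 1 to 2 in Ptprc-positive cells and 1 to 7 for the difference, with fewer samples in each fit. Without ZT18 replicate 1, 121 genes were called in all cells, 314 in fibroblasts and 1 in Ptprc-positive cells. The share of genes with the same sign at the neighbouring times was 96.1% for the reported fibroblast calls and 92.7% for the calls of the 6 libraries alone.
Depth limits the Ptprc-positive sums most, where Npas2 was at 0 UMIs in all 6 libraries and Hlf did not pass the filter on low counts. With 3 mice per time, exact tests cannot go below p = 0.1.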

Other observations

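In the Ptprc-positive cells, the interferon-stimulated genes lay on one side of 0: all 25 tested members had a log2 difference above 0, with a list median of 0.79 against 0.00 over all 9585 genes, and 11 of the 25 had groups that did not overlap, against 12.0% of all genes (of which 49.7% were above 0). None was called by edgeR, 5 had an unadjusted p under 0.05 and 0 were called by DESeq2. Over all genes tested in these cells the counts were 2 and 514 of 9585, and 7 of 17180 by DESeq2. In fibroblasts the median of the same list was 0.21, with 18 of 24 members above 0, against 50.08% of all genes. There only 1 of the 24 had groups that did not overlap, against 23.0% of all genes tested.

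The cytosolic ribosomal proteins in fibroblasts had small differences in one direction, with 77 of 81 members below 0 and a median of -0.07. The subunits of oxidative phosphorylation leaned the other way, with 59 of 81 above 0 (all genes 50.08%) and a median of 0.05. Groups did not overlap for 15 and 25 members, against 23.0% of all genes tested. The ribosomal list leaned the same way in Ptprc-positive cells (11 of 80 above 0, median -0.06) and in all kept cells (4 of 82, median -0.07). For the oxidative phosphorylation list these values were 47 of 81 (median 0.03) and 31 of 82 (median -0.03). In fibroblasts no member of either list was called by edgeR, 0 and 7 had an unadjusted p under 0.05, and DESeq2 called 0 and 1. Of all 12500 genes, edgeR called 306, 1778 had an unadjusted p under 0.05 and DESeq2 called 441.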
